A study of Mus musculus with 16 samples.

Results

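The genes described here are the 9 members of the MHC class II presentation pathway named by symbol: H2-Aa, H2-Ab1, H2-Eb1, Cd74, Ciita, H2-DMa, H2-DMb1, H2-Oa and H2-Ob. They were found by name among the 24496 gene symbols of the count tables. The symbol was read from the first element of each row name, and rows with the same symbol were summed. All 9 had UMIs in each of the 16 libraries, with library totals that ran from 15 UMIs for H2-Ob to 381081 UMIs for Cd74. A UMI is a unique molecular identifier, so 1 UMI stands for 1 captured RNA molecule.

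Single cells were sequenced from tumors and spleens of C57BL/6 mice, Aire+/+ or Aire-/- littermates, that carried subcutaneous tumors of MC38, a mouse colon carcinoma line. Aire drives the expression of peripheral tissue antigens in the thymus, and the Aire-/- mice lacked it from the germline in every cell. Females of 8 weeks received either anti-PD1, which blocks an inhibitory receptor of T cells, or the isotype control antibody at 5 mg/kg, and tissues were taken on day 19. Tumors of 4 to 6 mice were pooled for each condition, spleens were pooled as well, and each pool was sorted for CD45+ cells and, separately, for CD8+ cells.

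Of the 4 conditions, the Aire+/+ pair is given first and the Aire-/- pair second wherever 4 values stand together, and within each pair isotype comes before anti-PD1. Each condition was represented by 1 library for each tissue and sort. Differences between conditions thus had no replicate check and no test, and every interval covers counting error only. All mice carried MC38 tumors, so the spleens are those of tumor-bearing animals and no tumor-free group was analysed here.

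Between 1856 and 2944 cells per library passed the filters, with a median depth of 4414 to 12252 UMIs per cell. Gates on marker UMIs placed 83.1 to 96.2% of them in a cell class, and no class II gene was a gate gene. Ptprc, which encodes CD45, was detected in 87.6 to 98.4% of cells, and Cd8a or Cd8b1 in 98.8 to 99.5% of cells of the CD8 sorts. Any pair of libraries shared between 2 and 18 cell barcodes. Aire itself had 0 to 6 UMIs in the Aire+/+ libraries and 0 to 4 in the Aire-/- libraries, too few for a check of the labels.

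MHC class II molecules display peptides from endosomes to CD4 T cells. H2-Aa and H2-Ab1 encode the alpha and beta chains of I-A, the class II molecule found on the surface of C57BL/6 cells, and H2-Eb1 encodes the beta chain of I-E, which this strain cannot assemble because its alpha chain gene is not functional. Cd74 encodes the invariant chain, which guides class II molecules to endosomes and fills their groove. H2-DMa and H2-DMb1 encode H2-DM, which exchanges the invariant chain remnant for peptide, and H2-Oa and H2-Ob encode H2-O, an inhibitor of H2-DM. Ciita encodes the class II transactivator, the main switch for transcription of the I-A and I-E chains, Cd74 and H2-DM. It does not bind DNA itself and is recruited by factors of the RFX, CREB and NF-Y families, which bind conserved X and Y boxes in class II promoters. B cells and dendritic cells transcribe the pathway constitutively, whereas monocytes and macrophages do so on induction, mainly by interferon gamma. Mouse T cells are thought to lack surface class II. In build GRCm38.p6, Ciita lies at chr16:10480014-10531064 and Cd74 at chr18:60803849-60812652.

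Of the 9 genes, 7 lie in the class II region on chromosome 17 of build GRCm38.p6. They run in the order H2-Oa (chr17:34092379-34095234), H2-DMa (chr17:34119693-34139101), H2-DMb1 (chr17:34153191-34160229), H2-Ob (chr17:34238905-34245908), H2-Ab1 (chr17:34263227-34269418), H2-Aa (chr17:34282744-34287823) and H2-Eb1 (chr17:34305867-34316674).

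The promoter segments that hold the X and Y box cores are shown because these boxes are the elements through which Ciita is known to act on class II genes. Promoters ran from 250 bases before to 50 bases after the start in RefSeq (GRCm38.p6), and 6 of the 9 members had an entry. The search looked for GNAAC (X box core) followed by GATTGG (Y box core) with 20 to 30 bases between them. Members were searched on the strand of the gene only, whereas the background over all promoters was searched on both strands. The motif was chosen after the promoters had been seen. The pair was found in 5 of the 6, namely in H2-Aa, H2-Eb1, H2-DMb1, H2-Oa and H2-Ob. These letters were not found on the gene strand in either window of H2-DMa (chr17:34122582-34122881 and chr17:34125268-34125567). Both windows lie inside the annotated span of H2-DMa, which starts at chr17:34119693, so the bases before that start were not searched. Over all 32851 promoters of the same length, 0.651% held the pair on either strand, 16.1% held GATTGG alone or with it, and 84.8% held GNAAC. Each segment is written 5′ to 3′ on the strand of its gene with both cores in capitals.
H2-Aa: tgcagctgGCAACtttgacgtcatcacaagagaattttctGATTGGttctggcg
H2-Eb1: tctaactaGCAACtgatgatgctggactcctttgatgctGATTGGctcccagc
H2-DMb1: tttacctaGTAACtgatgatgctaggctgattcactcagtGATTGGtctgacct
H2-Oa: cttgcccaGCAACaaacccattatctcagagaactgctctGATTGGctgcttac
H2-Ob: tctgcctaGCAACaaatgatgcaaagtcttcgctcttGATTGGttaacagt

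The H2-Aa segment lies on the minus strand at chr17:34287859-34287912, and 43 bases separate its Y core from the start. The plus-strand segments are those of H2-Eb1 (chr17:34305768-34305820, 54 bases to the start), H2-DMb1 (chr17:34153089-34153142, 56 bases), H2-Oa (chr17:34092295-34092348, 38 bases) and H2-Ob (chr17:34238810-34238860, 52 bases). All 5 lie upstream of the first exon. Between the cores there were 27 bases in H2-Aa, H2-DMb1 and H2-Oa, 26 in H2-Eb1 and 24 in H2-Ob. A match describes the letters only and does not show that a factor was bound.

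The first question was which cells carried the transcripts. Levels are given as CPM, counts per 1000000 UMIs of the gated cells. The summed level of the 9 genes was high in dendritic cells, B cells and tumor macrophages, intermediate in monocytes and low in T cells. Its lowest, median and highest values over 4 libraries were 70908, 72350.0 and 79892 CPM in splenic conventional dendritic cells of the CD8 sort, most of which were type 1 cells. They were 41345, 47498 and 51418 CPM in tumor conventional dendritic cells and 37529, 40964 and 41581 CPM in splenic B cells, so these neighbours overlapped slightly. Tumor macrophages had 23311, 28186 and 38384 CPM, a range that reached just into that of B cells.

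Monocytes stood lower in both tissues. Tumor monocytes had 10428, 12909 and 14358 CPM, below every macrophage library, and splenic monocytes had 2227, 4698 and 8193 CPM, below every tumor monocyte library. T cells had 446, 1105 and 2448 CPM in the CD45 sort of the tumor, which overlapped the splenic monocytes. The median cell did not overlap, at 249, 161, 112 and 88.9 CPM in these T cells and 542 to 2065 CPM in splenic monocytes. In the other T cell samples the ranges were 174 to 303 CPM in the CD45 sort of the spleen, 180.4 to 278 CPM in the CD8 sort of the tumor and 109.7 to 145 CPM in that of the spleen. Tumor B cells were too few to describe, at 1 to 7 per CD45 library.

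**Figure D1:**
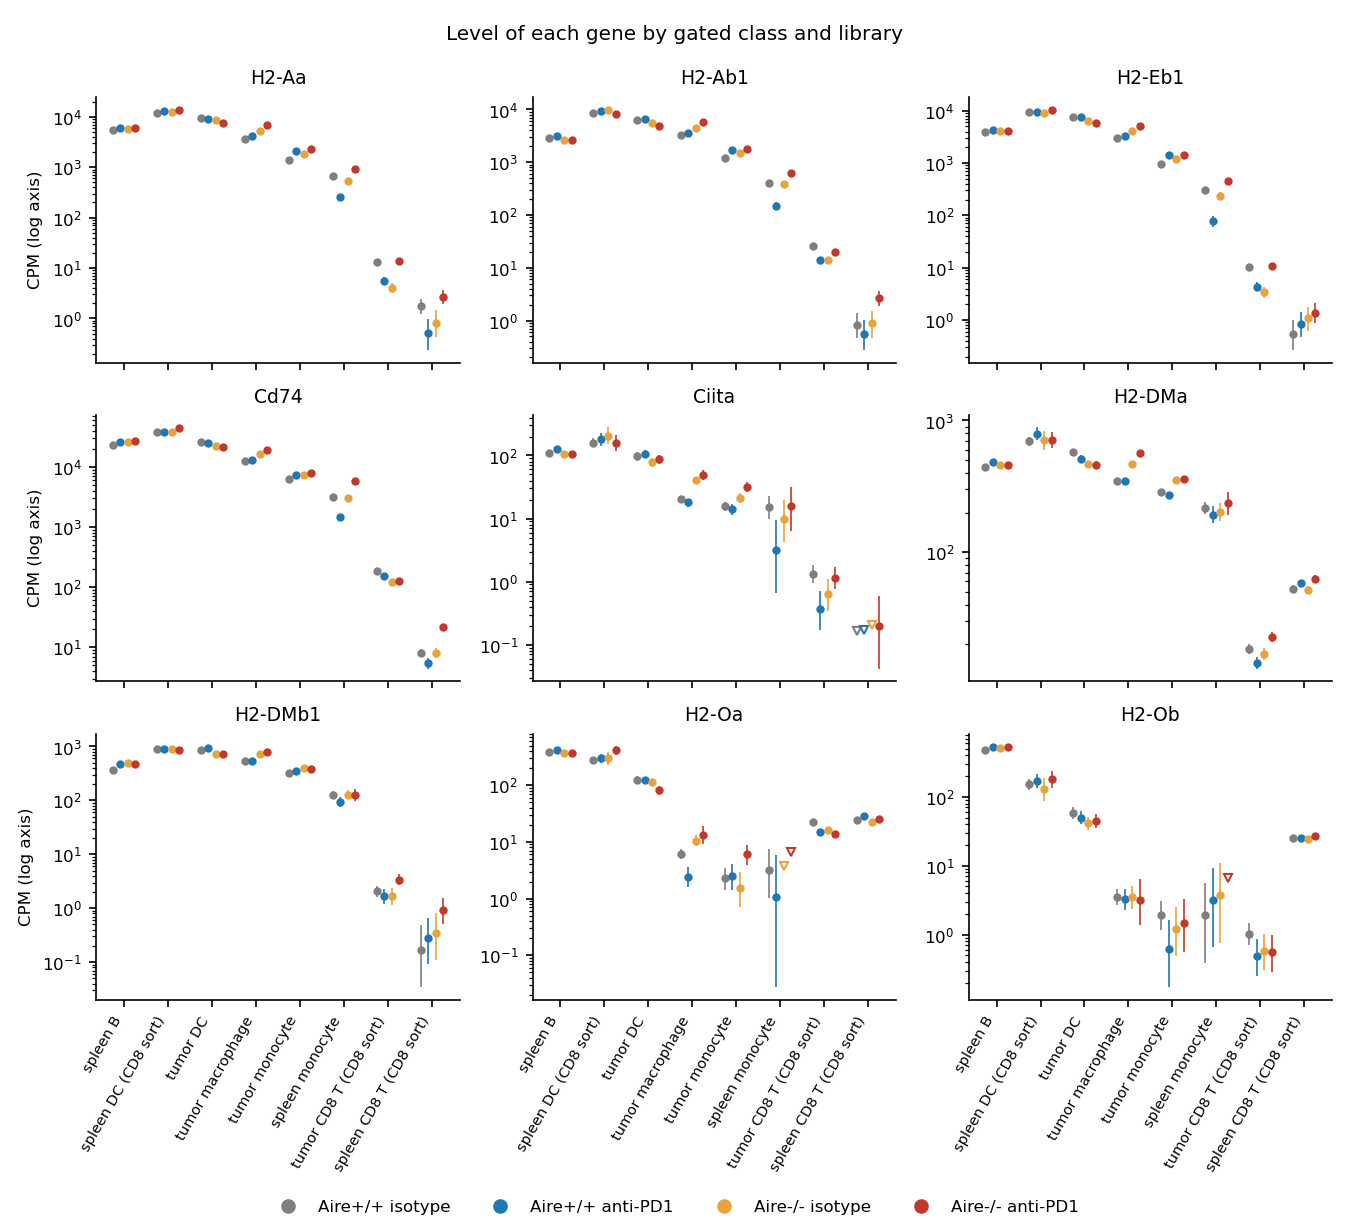
Level of each of the 9 genes (CPM, log axis) by gated cell class, with 1 point per library, bars for exact Poisson 95% intervals and open triangles for the level that 3 UMIs would give where no UMI was seen. H2-Aa, H2-Ab1, H2-Eb1, Cd74 and Ciita step down from B and dendritic cells to T cells, whereas H2-Oa and H2-Ob are low in macrophages and monocytes and H2-DMa, H2-Oa and H2-Ob are at 22.4 to 62.6 CPM in splenic CD8 T cells of the CD8 sort.

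The members did not share 1 pattern. Across 45 combinations of cell class and library with at least 50 cells, Pearson's r of log2(CPM + 1) between a member and the mean of the others was 0.96 to 0.98 for H2-Aa, H2-Ab1, H2-Eb1, Cd74 and Ciita. It was 0.90 for H2-DMa and 0.93 for H2-DMb1, and 0.36 for H2-Oa and 0.40 for H2-Ob. These points share libraries, depth and gates, so r is a description. The non-members most like the mean of all 9, among 10832 genes compared, were Pkib, a protein kinase A inhibitor (r = 0.95), Fgd2, an exchange factor for Cdc42 (0.94), Cd40, a costimulatory receptor of antigen-presenting cells (0.93), Wdfy4, which is needed for cross-presentation by dendritic cells (0.92), and Bmp2k, a protein kinase (0.92).

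The balance between the inhibitor H2-O and its target H2-DM differed among classes. Tags come from transcript ends and are not comparable per length between genes, so the ratio of H2-O UMIs (H2-Oa and H2-Ob) to H2-DM UMIs (H2-DMa and H2-DMb1) was compared only across classes. In splenic B cells H2-O UMIs were 106, 98.8, 94.0 and 95.9% of H2-DM UMIs. Splenic dendritic cells of the CD8 sort had 26.8, 27.8, 26.9 and 37.4%, and tumor dendritic cells had 12.7, 11.9, 12.9 and 10.5%. Tumor macrophages had only 1.09, 0.652, 1.16 and 1.23%, tumor monocytes 0.699, 0.502, 0.367 and 1.01%, and splenic monocytes 1.48, 1.49, 1.12 and 0%. The ranges of B cells, splenic dendritic cells, tumor dendritic cells and the macrophage and monocyte classes did not overlap, whereas those of macrophages and monocytes did. Mature dendritic cells of the tumor, at 15.5 to 32.1%, overlapped splenic dendritic cells. In the CD8 sorts, T cells overlapped B cells, at 82.8 to 95.2% in the spleen and 53.7 to 112% in the tumor. T cells of the CD45 sort of the tumor, at 14.1, 41.2, 18.4 and 48.5%, lay below B cells and overlapped splenic dendritic cells. H2-DMb1 has a near-identical neighbour, H2-DMb2, and reads lost or split between them would raise the ratio in all classes.

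Tumor macrophages carried more class II transcripts in both Aire-/- libraries than in both Aire+/+ libraries, for 8 of the 9 genes. Of the 10256 genes with at least 50 UMIs over the 4 libraries, 20.5% had this order. The gate, at least 3 UMIs of C1qa, C1qb and C1qc, held 1096, 740, 540 and 211 cells. H2-Aa, the I-A alpha chain, was at 3689, 4069, 5108 and 6759 CPM. H2-Ab1, the I-A beta chain, was at 3214, 3547, 4513 and 5749 CPM, and H2-Eb1 at 2988, 3313, 4014 and 5142 CPM. Both genotypes were thus apart for all 3 chains, and the Aire-/- anti-PD1 library was the highest.

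Cd74, the invariant chain, followed the same order at 12501, 13067, 16582 and 19318 CPM. The H2-DM chains were also higher in both Aire-/- libraries, with H2-DMa at 345, 348, 470.2 and 567 CPM and H2-DMb1 at 544, 528, 734 and 783 CPM. Ciita, the transactivator, was at 20.5, 18.0, 40.2 and 49.7 CPM, and a Ciita UMI was seen in 18.2, 17.8, 30.7 and 35.1% of macrophages. H2-Oa was low, at 6.12, 2.44, 10.5 and 13.3 CPM from 98, 26, 84 and 33 UMIs. H2-Ob, its partner in H2-O, was the exception at 3.56, 3.28, 3.49 and 3.23 CPM, with intervals that overlapped in all 4 libraries.

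Under anti-PD1, the Aire-/- library exceeded the Aire+/+ library by at least 1.5-fold for 6 of the 8 members with 50 or more UMIs over the pair. Of all 8778 genes tested, 21.7% passed 1.5-fold in either direction and 6.92% were higher in Aire-/-. The members' median log2 ratio was 0.70, with a range of 0.56 to 2.45, and that of all genes was -0.12. Ciita had a log2 ratio of 1.47 (95% interval 1.13 to 1.80) and H2-Oa 2.45 (1.67 to 3.25). H2-Oa had 26 and 33 UMIs in the Aire+/+ and Aire-/- libraries, so it met the minimum of 50 through the library where it was high, and the next highest ratio was that of Ciita. H2-Aa was at 0.73 (0.71 to 0.76), H2-Ab1 at 0.70, H2-DMa at 0.70 and H2-Eb1 at 0.63, whereas Cd74 at 0.56 and H2-DMb1 at 0.57 lay just below the 1.5-fold line. Members at or beyond 2-fold were Ciita and H2-Oa.

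Under isotype, the corresponding ratio passed 1.5-fold for 2 of 9 members, against a background of 10.9% of genes in either direction and 5.07% higher. These were Ciita at log2 0.97 (0.75 to 1.20) and H2-Oa at 0.77 (0.33 to 1.21). The members' median was 0.45, and H2-Aa, H2-Ab1, H2-Eb1, Cd74, H2-DMa and H2-DMb1 lay between 0.41 and 0.49. Of these 9 members, 8 were above 0, as were 42.4% of all genes, and H2-Ob was at -0.03 (-0.74 to 0.65).

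Anti-PD1 over isotype gave smaller median ratios in macrophages. In Aire+/+ mice 1 of 9 members passed 1.5-fold, H2-Oa, which was lower at log2 -1.33 (-2.01 to -0.69), against 4.07% of all genes in either direction. The members' median was 0.01. In Aire-/- mice 0 of 8 passed, against 12.2% of all genes, with a median of 0.33 and a range of 0.09 to 0.40. These ratios share libraries with the genotype ratios above, so they are not separate evidence.

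**Figure D2:**
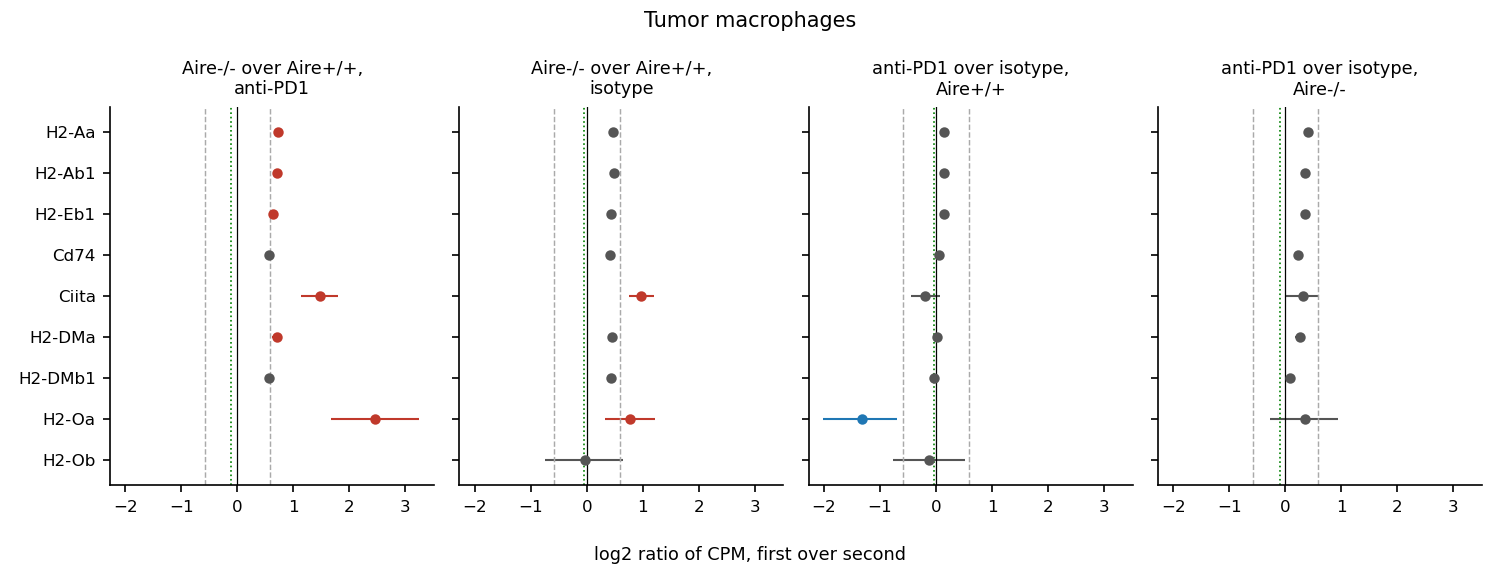
Log2 ratio of CPM in tumor macrophages for each gene and contrast, with exact 95% intervals for counting error, dashed lines at 1.5-fold, a dotted green line at the median of all tested genes, red for higher and blue for lower calls, and no point where the pair had under 50 UMIs. All tested members lie right of 0 in the Aire-/- over Aire+/+ contrast under anti-PD1, from 0.56 to 2.45.

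The difference was larger as a fold at the lower end of the cells than at the upper end. The summed level of the 9 genes at the 25th percentile of macrophages was 1492, 1962, 6243 and 14707 CPM. The median cell had 13217, 15577, 24972 and 39912 CPM, and the 90th percentile was 62984, 65136, 69558 and 72093 CPM. The best-expressing macrophages were thus at similar levels in all 4 libraries, whereas macrophages with little class II were scarce in the Aire-/- anti-PD1 library. Among macrophages with a Ciita UMI, the median level of the other 8 genes was 43393, 53715, 47353 and 52326 CPM. Among those without, it was 7066, 8660.2, 14489 and 31401 CPM, at a median depth of 13092, 13113, 12981 and 10997 UMIs against 15142, 15411, 15814 and 11556 UMIs in cells with a Ciita UMI.

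Other markers of the macrophage gate moved along with the genotype. The C1q genes were at 10263, 10802, 8876 and 6709.6 CPM, Lyz2 at 2186, 2154, 2713 and 4135 CPM, and the monocyte genes Ly6c2, Chil3, F13a1, Ace and Ear2 together at 1391, 1959.8, 2483 and 2749 CPM. B cell genes (3.23 to 10.1 CPM), T cell genes (0.687 to 4.04 CPM) and Xcr1 with Clec9a (0.562 to 2.02 CPM) were held low by the gate, which admits at most 1 UMI of each list per cell. The macrophages were also split at 3 UMIs of the monocyte genes, a split chosen after seeing the data. With at least 3, the log2 ratio of the summed class II level, Aire-/- over Aire+/+, was 0.57 under anti-PD1 and 0.35 under isotype. With under 3, it was 0.75 and 0.61. The part of the C1q genes and Lyz2 in the difference was not tested.

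Other genes of the pathway, from a fixed list of 32, were less uniform in macrophages. Of 11 transcription genes, 3 were at least 1.5-fold higher in Aire-/- under anti-PD1 and 1 was lower, against 21.7% of all genes in either direction and 6.92% higher. The higher genes were Nlrc5, the class I counterpart of Ciita (log2 1.09, 0.80 to 1.37), Irf1 (0.72), a factor of interferon signalling, and Nfyb (0.63), an NF-Y subunit. The NF-Y subunit Nfyc was lower at -0.72, and Rfx5, an RFX subunit, was at 0.29 (-0.58 to 1.09). Of 9 tested processing genes, H2-DMb2 was higher (1.33) and the lysosomal proteases Lgmn (-1.05), Ctsb (-0.85), Ctsl (-0.72) and Ctsd (-0.67) were lower. Ctss, which trims the invariant chain, was at -0.01 (-0.04 to 0.02).

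Of 5 turnover and costimulation genes, March8, a ubiquitin ligase, was lower at -0.97 (-2.02 to -0.06), and Cd40 was at 0.57. Of 6 class I genes, Tap2, a subunit of the peptide transporter, passed at 0.69, and the median of the 6 was 0.21. These 2 shares, 1 of 5 and 1 of 6, are near the 21.7% of all genes. Under isotype, against 10.9% of all genes, Nlrc5 (0.92) passed of 11 transcription genes and Cd40 (0.79) of 5 turnover and costimulation genes, both higher in Aire-/-. None of the 9 processing and 6 class I genes did. For anti-PD1 over isotype in Aire-/- mice, against 12.2% of all genes, Nlrc5 was higher and Nfyc lower of the 11. Ctsb and Lgmn were lower of the 9, and none of the 5 and the 6 passed. In Aire+/+ mice no listed gene passed, against 4.07% of all genes.

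Tumor monocytes differed less. The gate held 789, 533, 476 and 380 cells. H2-Aa was at 1416, 2079.7, 1835 and 2334 CPM and Cd74 at 6211, 7249.7, 7377 and 8041 CPM, so the Aire+/+ isotype library was the lowest and both genotypes overlapped for H2-Aa. Ciita was at 15.7, 14.0, 21.2 and 31.6 CPM, higher in both Aire-/- libraries. Under anti-PD1, Ciita alone of 7 tested members passed 1.5-fold in Aire-/- over Aire+/+, at log2 1.18 (0.78 to 1.59), against 15.4% of all genes in either direction and 5.43% higher. The other 6 lay between -0.03 and 0.39. Lyz2 was at 7486, 8231, 10705 and 13106 CPM in these monocytes and Cd209a with Flt3 at 1.62, 2.98, 3.30 and 3.76 CPM, both higher in the Aire-/- libraries. The 5 monocyte genes together, at 3521, 4609, 3946 and 4318 CPM, overlapped between genotypes. Their part in the difference was not tested.

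Under isotype 0 of 7 members passed in monocytes, against 10.5% of all genes, with a median log2 ratio of 0.33. Anti-PD1 over isotype gave 0 of 7 in Aire+/+ mice, with a median of 0.22 against a background of 4.85%, and 0 of 7 in Aire-/- mice, with a median of 0.24 against 7.42%. In Aire+/+ mice H2-Aa at 0.55, H2-Ab1 at 0.51 and H2-Eb1 at 0.57 lay just below the line. In Aire-/- mice so did Ciita, at 0.58 (0.21 to 0.95), and 1 member passed with either stricter or looser gates.

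Class II levels were strongly uneven among tumor monocytes. The median cell had 1870.1, 1575, 1726 and 2578 CPM of the 9 genes, whereas the 90th percentile was 35511, 44760.5, 40236 and 48951 CPM. A Ciita UMI was seen in 12.4, 10.9, 14.7 and 20% of the monocytes. In these, the other 8 genes had a median of 23228, 26012, 29055 and 34913 CPM, against 1249, 1194, 1096 and 1224 CPM in the remainder. The median depth was similar with and without a Ciita UMI, for example 12318 against 11293 UMIs in the Aire+/+ isotype library. H2-Eb1 was detected in 39.4, 39.4, 41.8 and 43.7% of monocytes.

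**Figure D3:**
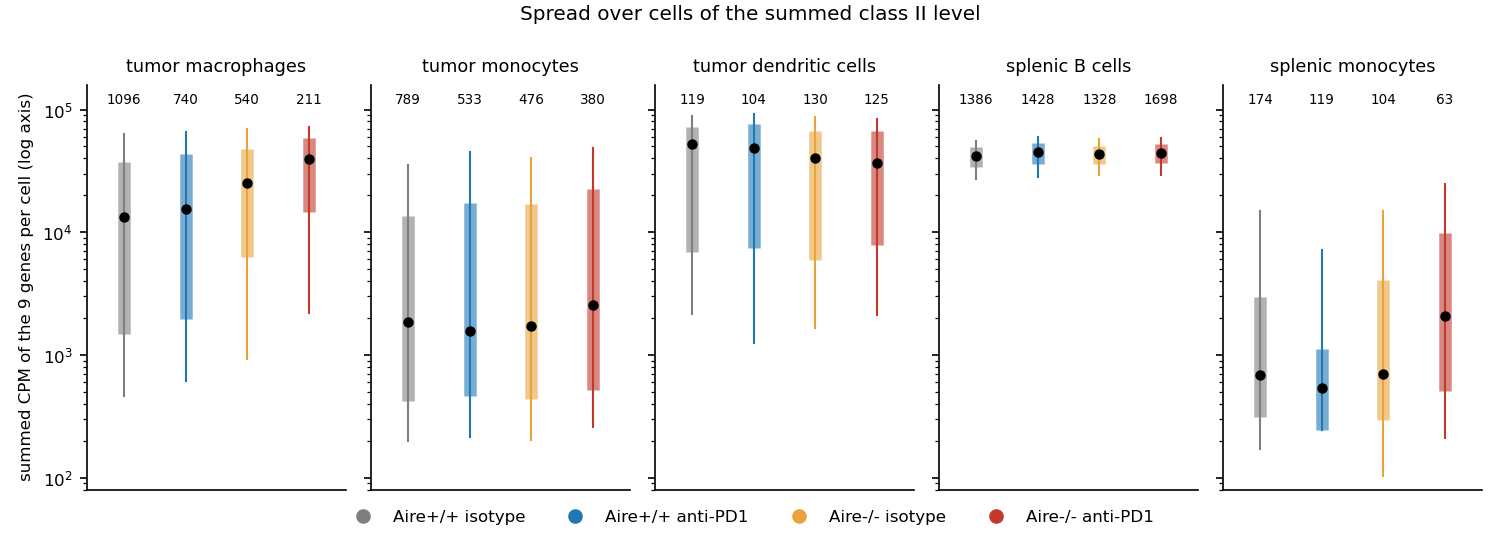
Spread over cells of the summed level of the 9 genes (CPM per cell, log axis) by class and library, with a dot at the median cell, a box from the 25th to the 75th percentile, a line from the 10th to the 90th and the number of cells above it. Splenic B cells span a narrow range in all 4 libraries, tumor monocytes a wide one, and the lower end of tumor macrophages is highest in the Aire-/- anti-PD1 library.

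Conventional dendritic cells of the tumor, taken as 1 class, showed the opposite order, at a small size. The gate held 119, 104, 130 and 125 cells, and 9 of 9 members were lower in Aire-/- than in Aire+/+ under each treatment, as were 31.6% of all genes. H2-Ab1 was at 6408, 6625, 5599 and 4762 CPM, H2-Aa at 9665, 9247, 8648 and 7697 CPM, and Cd74 at 25942, 24997, 22639 and 21732 CPM. Ciita was at 97.7, 107, 77.6 and 86.9 CPM. The genotypes did not overlap for these 4 genes, but 1 member only passed 1.5-fold. That was H2-Oa, lower under anti-PD1 at log2 -0.60 (-0.92 to -0.29), with 126, 123, 112 and 80.9 CPM, against 14.7% of all genes in either direction and 8.30% lower. With stricter gates the H2-Oa ratio was 0.40, on the other side of 0. With looser gates, or with ratios centred on the median of all genes, 0 members passed under anti-PD1.

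The members' median log2 ratio in tumor dendritic cells was -0.30 under anti-PD1 and -0.25 under isotype, where 0 of 9 passed against 12.1% of all genes. With stricter gates 4 of 9 passed under isotype. Anti-PD1 over isotype gave 0 of 9 in both genotypes, with medians of -0.05 in Aire+/+ and -0.06 in Aire-/- mice, against 10.8% and 8.37% of all genes. The make-up of the gate differed between the libraries. Lyz2, a gene of monocytes and macrophages, was at 674, 1939.6, 2279.9 and 2841 CPM in these cells, and the 5 monocyte genes together at 344, 767, 758 and 754 CPM. Their part in the difference was not tested.

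Among the dendritic cells, the type 2 cells marked by Cd209a and Flt3 numbered 48, 45, 51 and 40. In these, H2-Aa was at 11436, 11389, 8881 and 6084 CPM, H2-Ab1 at 8197, 8268, 6370 and 4019.9 CPM, and H2-Eb1 was detected in 89.6, 80, 82.4 and 72.5% of cells. The 25th percentile of the summed level was 44117, 48432, 10320.2 and 2688 CPM. Under anti-PD1, 6 of 9 members were at least 1.5-fold lower in Aire-/- type 2 cells, with a median log2 ratio of -0.92, against 20% of all genes in either direction and 9.97% lower. They were H2-Aa (-0.90), H2-Ab1 (-1.04), H2-Eb1 (-1.14), Ciita (-0.92), H2-Oa (-1.10) and H2-Ob (-1.34). H2-Oa and H2-Ob together had 157 UMIs in the Aire+/+ and 55 in the Aire-/- anti-PD1 library. H2-Ob, the lowest ratio, may thus have met the minimum of 50 UMIs only through the library where it was high. Under isotype 1 of 9 was lower, Ciita at -0.64, with a median of -0.36, against 17.5% and 6.52%. Anti-PD1 over isotype gave 0 of 9 in Aire+/+ mice, against 14.8%, and 4 of 9 lower in Aire-/- mice, with a median of -0.55, against 14.4% in either direction and 7.78% lower. Lyz2 was at 1463, 3850.2, 4869 and 8380.1 CPM in the type 2 cells and the 5 monocyte genes together at 621, 833, 1070.2 and 1619 CPM. Both were higher in the Aire-/- libraries, where class II was lower, and their part in the difference was not tested. Mature dendritic cells, marked by Fscn1 and Ccl22, numbered 57, 47, 61 and 61, and H2-Aa, at 7607, 6448, 8155 and 6793 CPM, overlapped between genotypes. The members' median log2 ratio there, Aire-/- over Aire+/+, was -0.18 (range -0.38 to 0.12) under anti-PD1 and 0.14 (-0.63 to 0.55) under isotype. For anti-PD1 over isotype it was -0.01 (-0.24 to 0.77) in Aire+/+ and -0.09 (-0.44 to 0.36) in Aire-/- mice. Type 1 cells numbered 14, 12, 18 and 24 in these libraries and were not compared.

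Splenic B cells differed little between libraries. The gate held 1386, 1428, 1328 and 1698 cells, and 0 of 9 members passed 1.5-fold in any of the 4 contrasts. The background was 5.07% of genes for Aire-/- over Aire+/+ under anti-PD1, 3.92% under isotype, 3.70% for anti-PD1 over isotype in Aire+/+ and 3.03% in Aire-/-. The members' median log2 ratios were -0.08 (range -0.29 to 0.04), 0.05 (-0.16 to 0.41), 0.15 (0.13 to 0.39) and 0.01 (-0.04 to 0.04) in that order. Every member was thus slightly higher for anti-PD1 over isotype in Aire+/+. H2-Aa was at 5510.3, 6094, 5814 and 5876 CPM, Cd74 at 23473, 25908, 26359 and 26692 CPM, and Ciita at 108, 129, 107 and 105 CPM.

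Furthest apart among B cell libraries was H2-DMb1, at 366, 479.7, 487 and 473 CPM. Its log2 ratio was 0.41 (0.34 to 0.49) for Aire-/- over Aire+/+ under isotype and 0.39 for anti-PD1 over isotype in Aire+/+, both of which rest on the Aire+/+ isotype library. The inhibitor genes H2-Oa, at 384, 426, 376 and 371 CPM, and H2-Ob, at 476, 530.4, 513 and 526 CPM, were also even. The spread over cells was narrow, with a median cell at 41719.6, 44985, 43472 and 44663 CPM. B cells with and without a Ciita UMI were alike, at 42271 and 41148 CPM of the other 8 genes in the Aire+/+ isotype library and 45330.1 and 44067 CPM in the Aire-/- anti-PD1 library. The other pathway genes tested in B cells were 11 of transcription, 10 of processing, 3 of turnover and costimulation and 6 of class I. Of these Nlrc5 alone passed, at 8.78, 13.2, 8.41 and 6.65 CPM. It was lower in Aire-/- under anti-PD1 (log2 -0.99, -1.50 to -0.50) and higher with anti-PD1 in Aire+/+ (0.59, 0.11 to 1.08). A single call among these genes is near the 5.07% and 3.70% of all genes in the 2 contrasts.

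The gate for splenic dendritic cells of the CD8 sort held 70, 42, 21 and 32 cells. Type 1 cells made up 61, 38, 18 and 26 of them, and Xcr1 with Clec9a stood at 706 to 829 CPM. In all 4 contrasts 0 of 9 members passed, against 15.5, 16, 14.1 and 12.7% of the genes tested (Aire-/- over Aire+/+ under anti-PD1 and under isotype, then anti-PD1 over isotype in Aire+/+ and in Aire-/-). The members' log2 ratios ran from -0.38 to 0.47 over the 4 contrasts, and with cells thinned to 1000 UMIs 2, 1, 3 and 3 members passed. Cd74 was at 38803, 38227, 38582 and 44915 CPM and H2-Eb1 at 9346, 9468, 9166 and 10435 CPM. H2-Oa was at 274, 301, 299 and 411 CPM, with a log2 ratio of 0.45 (0.07 to 0.83) for Aire-/- over Aire+/+ under anti-PD1. The Aire-/- anti-PD1 library was the highest for these 3 genes, but its ratio was above 0 for 5 of 9 members over Aire+/+ and for 5 of 9 over isotype. Fscn1 with Ccl22, of mature dendritic cells, was also highest there, at 198, 134, 279.7 and 375 CPM, and its part in these values was not tested. The CD45 sort of the spleen held 38, 24, 22 and 19 such cells, and the last library was not compared. There the members' median log2 ratio was -0.33 (range -0.71 to 0.36) for anti-PD1 over isotype in Aire+/+. It was -0.24 (range -0.55 to 0.34) for Aire-/- over Aire+/+ under isotype.

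Splenic monocytes differed between libraries in the I-A and I-E chains and Cd74, in few cells. The gate held 174, 119, 104 and 63 cells. H2-Aa was at 657, 257, 529 and 932 CPM, H2-Ab1 at 408, 147, 382 and 622 CPM, and H2-Eb1 at 309.6, 76.7, 238 and 444 CPM. Cd74 was at 3171, 1452, 2994 and 5817 CPM. Over the whole gate, the isotype libraries lay close together for these 4 genes, the Aire+/+ anti-PD1 library lay below them and the Aire-/- anti-PD1 library above.

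Among the H2-DM chains, H2-DMa had the same order with smaller gaps, at 216, 193, 201 and 236 CPM. H2-DMb1 was at 128, 93.8, 128 and 127 CPM, with the Aire+/+ anti-PD1 library below the others. Ciita rested on 24, 3, 8 and 7 UMIs in splenic monocytes and could not be compared. H2-Oa had 5, 1, 0 and 0 UMIs, where 0 allows up to 3.71 CPM in the Aire-/- isotype and 6.69 CPM in the Aire-/- anti-PD1 library. H2-Ob had 3, 3, 3 and 0 UMIs.

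Under anti-PD1, 4 of 6 tested members were at least 1.5-fold higher in Aire-/- than in Aire+/+ splenic monocytes, against 12.4% of all genes in either direction and 5.74% higher. The log2 ratios were 1.86 (1.63 to 2.09) for H2-Aa, 2.08 (1.78 to 2.39) for H2-Ab1, 2.53 (2.14 to 2.94) for H2-Eb1 and 2.0 (1.91 to 2.10) for Cd74. Under isotype 0 of 6 passed, against 8.93% of all genes, with a median of -0.10.

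Anti-PD1 over isotype gave 4 of 6 members lower in Aire+/+ mice, against 6.92% of all genes in either direction and 3.30% lower. H2-Aa was at log2 -1.36, H2-Ab1 at -1.47, H2-Eb1 at -2.01 and Cd74 at -1.13. In Aire-/- mice the same 4 of 6 were higher, against 10.2% in either direction and 5.28% higher, with H2-Aa at 0.82, H2-Ab1 at 0.70, H2-Eb1 at 0.90 and Cd74 at 0.96. With stricter gates that last count was 1, and H2-Eb1 was at -0.01. Each of these contrasts shares an anti-PD1 library with the genotype contrast above.

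**Figure D4:**
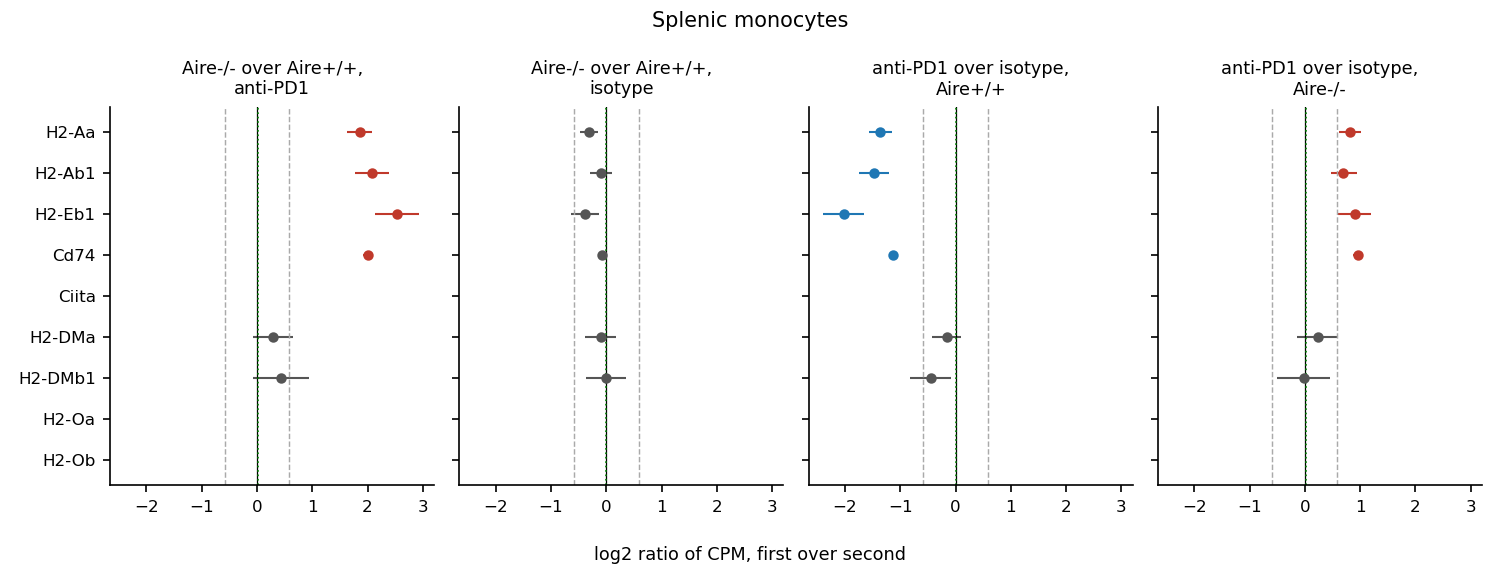
Log2 ratio of CPM in splenic monocytes for each gene and contrast, drawn as for tumor macrophages with exact 95% intervals for counting error, dashed lines at 1.5-fold and a dotted green line at the median of all tested genes. H2-Aa, H2-Ab1, H2-Eb1 and Cd74 lie left of 0 for anti-PD1 over isotype in Aire+/+ and right of 0 in Aire-/-, and Ciita, H2-Oa and H2-Ob have no point because their pairs held under 50 UMIs.

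The level was uneven among splenic monocytes. The median splenic monocyte had 692, 542, 695 and 2065 CPM of the 9 genes, and the 90th percentile was 14877, 7103, 14841 and 24519 CPM. B cell genes were at 15.9, 20.3, 18.5 and 24.5 CPM in these cells, Cd209a with Flt3 at 9.54, 9.59, 7.41 and 15.6 CPM, and Xcr1 with Clec9a at 0 to 1.07 CPM. The Cd209a and Flt3 value was highest in the library with the highest class II level, and its part in the difference was not tested.

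Splenic monocytes were also split by type, a choice made after seeing the data. Cells with more UMIs of Ly6c2, Chil3 and F13a1, genes of classical monocytes, than of Ace and Ear2, genes of nonclassical monocytes, numbered 95, 58, 51 and 26. Their summed class II level was 2174, 1332, 1253 and 5986 CPM, whereas the median cell had 434, 502, 509 and 937 CPM. The remaining 79, 61, 53 and 37 cells had 10711, 3864, 9502 and 10675 CPM, with a median cell at 2258, 546, 1259 and 3271 CPM. In both types the Aire-/- anti-PD1 library exceeded the Aire+/+ anti-PD1 library, by log2 2.17 and 1.47. The Aire-/- anti-PD1 library exceeded the Aire-/- isotype library by 2.26 in the first type and by 0.17 in the second. Under isotype, Aire-/- over Aire+/+ was at -0.79 in the first type, with a lowest member at -2.84, and at -0.17 in the second.

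T cells were examined to measure how much class II signal appeared where the genes should be silent. The members' median log2 ratio, Aire-/- over Aire+/+ under anti-PD1, was 0.90 in tumor CD8 and 2.46 in tumor CD4 T cells (CD45 sort). It was 0.66 in T cells of the tumor CD8 sort, 1.16 in the splenic CD45 sort and 0.11 in the splenic CD8 sort. Under isotype the medians were 0.19, 0.43, -0.73, -0.22 and -0.05 in that order. Each rests on 4 to 8 tested members, and the median of all genes was -0.04 to 0.08. In the CD8 sort of the spleen, 2703, 2757, 2208 and 2458 CD8 T cells had 114, 119, 109.7 and 145 CPM of the 9 genes, 0.277, 0.381, 0.498 and 0.472% of the level in the other cells of their library. The make-up differed from that of the other cells. H2-DMa gave 46.1, 48.6, 47.4 and 43.2% of the members' UMIs in CD8 T cells, against 1.07 to 1.25% in the other cells. H2-Oa gave 21.6, 23.9, 20.4 and 17.7%, against 0.429 to 0.675%, and H2-Ob 22.4, 21.2, 21.9 and 18.5%, against 0.283 to 0.402%. Cd74, the largest component of the other cells at 53.9 to 57.1%, gave 7.02, 4.49, 7.38 and 15.2%, and H2-Aa gave 0.425 to 1.83%, against 16.6 to 17.3%.

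In splenic CD8 T cells of the CD8 sort, H2-DMa was at 52.5, 58.1, 52.0 and 62.6 CPM, H2-Oa at 24.7, 28.5, 22.4 and 25.6 CPM and H2-Ob at 25.5, 25.3, 24.1 and 26.8 CPM, all even between conditions. H2-Ob was detected in 14.7, 13.9, 13.2 and 14.3% of these cells. In the CD45 sort of the spleen, H2-Ob was detected in 12.1 to 15.2% of CD8 T cells and 0 to 5.56% of NK cells, at median depths of 6021 to 6662 and 3727 to 4348 UMIs. In deeper splenic monocytes of the same libraries it was detected in 0 to 2.88% of cells. Ciita had no UMI in 3 of the 4 CD8 T cell samples of the splenic CD8 sort, which allows up to 0.165, 0.169 and 0.206 CPM. The part of free RNA in the T cell values was not tested.

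In the CD8 sort, Cd74 and the I-A and I-E chains were low in splenic CD8 T cells. Cd74 was at 8.01, 5.36, 8.09 and 22.0 CPM, H2-Aa at 1.75, 0.508, 0.823 and 2.66 CPM, H2-Ab1 at 0.823, 0.564, 0.891 and 2.66 CPM and H2-Eb1 at 0.548, 0.846, 1.10 and 1.39 CPM. The Aire-/- anti-PD1 library was highest for each, at levels far below those of dendritic cells. The 131, 145, 140 and 180 CD8 T cells of the CD45 sort of the spleen had more, with Cd74 at 180.0, 34.0, 30.6 and 107 CPM and H2-Aa at 10.5, 8.77, 5.28 and 42.0 CPM. Lyz2 was at 365, 0, 0 and 4.37 CPM in these cells, highest in the library with the highest Cd74, and its part in that value was not tested. The annotated span of H2-DMa overlaps Brd2, and that of H2-Oa overlaps the noncoding gene BC051537. The span of Ciita overlaps Dexi and LOC115488669. The strand setting of the counting is not given in the sources used here, so reads of those neighbours may be included, whereas the span of H2-Ob overlaps no gene.

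CD8 T cells of the tumor had another make-up, which differed between the sorts. In the CD8 sort of the tumor, 2412, 2047, 1732 and 2075 cells had 277, 211, 181 and 212 CPM, which was 3.35, 2.38, 2.05 and 4.90% of the level in the other cells. Cd74 gave 66.1, 73.6, 68.5 and 59.3% of the members' UMIs, at 183, 155, 124 and 126 CPM, above the CD8 sort of the spleen but not above each library of its CD45 sort. H2-Ob was at 1.03, 0.489, 0.588 and 0.558 CPM, below every splenic sample, and H2-DMa at 18.4, 14.4, 16.8 and 22.9 CPM was also below. H2-Oa was at 22.2, 14.7, 16.1 and 13.7 CPM, a range that just missed that of the CD8 sort of the spleen and overlapped that of its CD45 sort. H2-Aa, at 13, 5.63, 3.97 and 14.0 CPM, gave 2.19 to 6.57% of the UMIs against 15.7 to 18.6% in the other cells. Each tissue was processed apart, so tissue and library preparation cannot be told apart here.

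**Figure D5:**
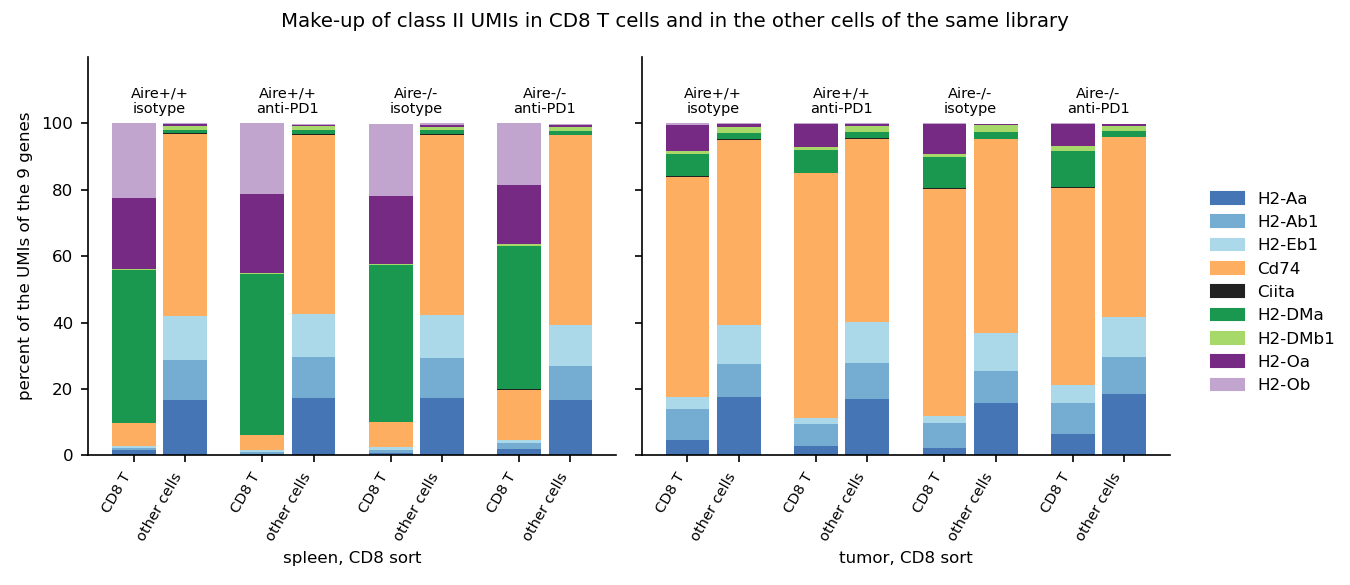
Share of each gene among the UMIs of the 9 genes (percent, stacked bars) in CD8 T cells and in all other cells of the same library, for the 4 CD8 sorts of the spleen and the 4 of the tumor. H2-DMa, H2-Oa and H2-Ob fill most of the bar in splenic CD8 T cells and Cd74 fills most of it in tumor CD8 T cells, whereas the other cells have the same make-up in all 8 libraries to within a few percent.

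CD4 T cells of the tumor had a higher class II signal than CD8 T cells of the same 4 libraries. In the CD45 sort, 117, 100, 49 and 77 of them had 3915, 847, 4701 and 1865 CPM, or 21.0, 4.29, 22.4 and 14.8% of the level in the other cells, with a median cell at 943, 637, 520.5 and 218 CPM. Most cells with a UMI of Foxp3, the regulatory T cell factor, carried Cd74. It was detected in 89.6, 92.3, 88.5 and 68.8% of the 96, 65, 26 and 48 cells with Foxp3, and in 47.6, 40.0, 56.5 and 27.6% of the 21, 35, 23 and 29 cells without. After each cell was thinned to 1000 UMIs, the shares were 53.1, 49.2, 46.2 and 29.2% with Foxp3 and 33.3, 25.7, 34.8 and 3.45% without. The cells with Foxp3 were deeper, at a median of 8768, 8882, 10508 and 7549.5 UMIs against 4978, 5304, 6145 and 5434.

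The sums of the CD4 T cells, however, rested on few cells. The 3 cells with most class II UMIs held 69.1, 16.2, 91.5 and 27.4% of the members' UMIs among those with Foxp3, and 55.9 to 97.9% among those without. H2-Aa was detected in 16.7, 9.23, 23.1 and 8.33% of cells with Foxp3, far fewer than Cd74. In the same libraries Cd74 was detected in 18.2 to 33.3% of NK cells, at 37.2 to 297 CPM, and in 32.8 to 37.1% of CD8 T cells. The split by Foxp3 was chosen after values had been seen. For all tumor T cells of the CD45 sort, the median summed level over libraries was 695 CPM without cells of over 2 times the median UMIs and 539 CPM with stricter gates, against 1105 CPM.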

How the data were processed

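The authors deposited 1 table of raw UMI counts per library (genes by cells), made after reads were aligned to mouse build GRCm38 per the labels. Strand setting and ambient correction are not given in the sources used here. Libraries of 16 samples (4 conditions, 2 tissues, 2 sorts) were grouped by the labels, and 0 columns were left out. Of the cells, those with at least 200 genes and at most 20% mitochondrial UMIs were kept, the filter of the study. Classes were gated on at least 3 UMIs of marker genes (2 for dendritic types and NK cells) and at most 1 UMI of other lineages. The upper limit for macrophage genes was set apart at 3 UMIs, and where Lyz2 was required its minimum was 3 UMIs. Because Ly6c2 and Ccr9 are also expressed outside monocytes and plasmacytoid cells, the monocyte genes excluded no other class and the plasmacytoid genes excluded only monocytes and conventional dendritic cells, a change made after seeing the data. No doublet caller was run, and cells with over 2 times the median UMIs of their class were left out as an alternative.

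UMIs were summed per class and library (at least 20 cells) and divided by the total to give CPM with exact Poisson intervals. Shares of cells have Clopper-Pearson intervals, and ratios have conditional exact 95% intervals, which cover counting error only. With 1 library per condition no test was possible, and cells are not replicates. A gene was called at 1.5-fold with at least 50 UMIs over the pair, and background is the share of all such genes called. A value of 0 allows 3 UMIs. The procedure was tested on simulated data that held counting error only and no spread between cells, so the test does not cover uneven classes. The rule for named genes was all 9 members, listed pathway genes past 1.5-fold in macrophages and B cells, and the 5 genes most like the members. Outside this rule, Rfx5 and Ctss were also named, though neither passed in macrophages. The pathway list held 1 further gene that is not reported here and is left out of its counts. Members, lists and gates were chosen with earlier results of these data known. Python 3.11.15, numpy 2.4.6, scipy 1.17.1 and pandas 2.3.3 were used.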

Additional observations from a re-analysis of the deposited data

Results flagged for a closer look

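In splenic monocytes, 4 genes had ratios of anti-PD1 over isotype that pointed in opposite directions in the 2 genotypes. On the log2 scale, H2-Aa was at -1.36 in Aire+/+ and 0.82 in Aire-/- mice. H2-Ab1 was at -1.47 and 0.70, H2-Eb1 at -2.01 and 0.90, and Cd74 at -1.13 and 0.96. The difference between the genotypes was not tested, since each condition had 1 library. The Aire-/- anti-PD1 library held 63 of these cells, and its value for classical monocytes rested on 26. The Aire-/- direction did not hold throughout. With stricter gates 1 member passed and H2-Eb1 was at -0.01, and in the cells with no more classical than nonclassical UMIs the members' median was -0.08.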

How the results depend on the processing

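No paired analysis was possible because each condition had 1 library per tissue and sort and the labels carry no replicate numbers, and for the same reason no replicate could be left out. Of 305 counts and levels recomputed under other settings, 233 stayed close (a count within 1.5 times, a level within its counting interval) and 72 did not. Of 1744 ratios of single members, 1289 stayed within their 95% interval, 453 moved beyond it, and 2 that had passed 1.5-fold changed sign, both with stricter gates. H2-Oa in tumor dendritic cells (Aire-/- over Aire+/+, anti-PD1) was at 0.40 in place of -0.60, and H2-Eb1 in splenic monocytes (anti-PD1 over isotype, Aire-/-) was at -0.01 in place of 0.90. The cause was not tested for any of the values given here, and small classes limit the precision. Depth limits H2-Oa, H2-Ob and Ciita in monocytes.

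In the counts that follow, a member is counted past 1.5-fold in either direction unless another line is named. In tumor macrophages, Aire-/- over Aire+/+ under anti-PD1 gave 6 members at 1.5-fold and 2 at 2-fold. Under isotype 2 became 0 at 2-fold, 1 with cells weighted equally, 1 with stricter gates, and 1 or 6 with at least 3 or under 3 UMIs of the monocyte genes. Anti-PD1 over isotype in Aire+/+ gave 2 in place of 1 after thinning and 0 with under 3 monocyte UMIs, and in Aire-/- it gave 1 in place of 0 with stricter gates and in each of the groups split by monocyte UMIs.

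In tumor monocytes, Aire-/- over Aire+/+ under anti-PD1 gave 2 in place of 1 after thinning and 3 with no minimum of UMIs. Under isotype it gave 1 in place of 0 with the T-cell level subtracted and with no minimum. Anti-PD1 over isotype in Aire+/+ gave 3 in place of 0 with the T-cell level subtracted, 1 after thinning and 1 with no minimum. In Aire-/- it gave 1 in place of 0 with stricter or looser gates, thinning, equal weights, centring, high-UMI cells left out, the T-cell level subtracted and no minimum.

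In tumor dendritic cells, Aire-/- over Aire+/+ under anti-PD1 gave 0 in place of 1 at 2-fold, with looser gates and with centring, 2 with stricter gates and 3 after thinning. Under isotype it gave 4 in place of 0 with stricter gates and 1 after thinning. Anti-PD1 over isotype gave 2 in place of 0 in Aire+/+ with stricter gates and 1 after thinning, and in Aire-/- 1 with stricter gates, thinning or the T-cell level subtracted. In tumor type 2 cells, Aire-/- over Aire+/+ under isotype gave 2 in place of 1 after thinning and 0 at 2-fold, and anti-PD1 over isotype gave 1 in place of 0 in Aire+/+ after thinning and 2 in place of 4 in Aire-/- at 2-fold. In splenic dendritic cells of the CD8 sort, thinning gave 2, 1, 3 and 3 in place of 0 for the 4 contrasts, and equal weights gave 1 in all but anti-PD1 over isotype in Aire+/+.

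In splenic monocytes, anti-PD1 over isotype in Aire-/- gave 4 members, but 0 at 2-fold, 1 with stricter gates and 2, both lower, in cells with no more classical than nonclassical UMIs. Aire-/- over Aire+/+ under isotype gave 4 in place of 0, all lower, in the classical cells, and 1 with no minimum.

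The median summed level, in CPM, was 27456 after thinning and 27111 with looser gates in tumor macrophages (28186). In tumor monocytes (12909) it was 12403 after thinning, 12479.9 with looser and 11721 with stricter gates. In tumor dendritic cells (47498) it was 43042 after thinning and 40264 with stricter gates. In tumor type 2 cells (55644) it was 53977 after thinning, and stricter gates left too few of them for a value. In splenic B cells (40964) it was 43806, 40729.7 and 41273 after thinning and with looser and stricter gates. In splenic dendritic cells (72350.0) it was 75917 after thinning and 70514 with looser gates, and in splenic monocytes (4698) 5097 with stricter gates. Tumor T cells of the CD45 sort (1105) had 775 after thinning, 695 without high-UMI cells, and 1296 and 539 with looser and stricter gates. Splenic T cells of the CD45 sort (219.5) had 254 after thinning, 182 without high-UMI cells and 170 with stricter gates. Tumor T cells of the CD8 sort (211) had 231, 232 and 192 under those settings, and splenic T cells of the CD8 sort (117) had 126 with looser gates.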
